A study of Mus musculus with 12 samples.

Results

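The genes described here carry glucose from the medium to lactate, or belong to the response of cells to low oxygen. The list names 33 genes, and they were found by matching the gene names of the array table, in any case and with older names allowed. Probes were found for 32 of them, and for Ankrd37 none was found under that name. The brightest detected probe stood for each gene. Detection means a detection p under 0.01, and a gene was measured when a probe was detected on at least 3 of the 12 arrays. In all, 26 of the 33 genes were measured, out of 10597 genes tested, so that counts below are over these 26 and not over the whole list.

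The cells were mouse extraembryonic endoderm (XEN) stem cells, a line that stands for the primitive endoderm of the early embryo, and RNA was measured on Illumina MouseWG-6 V2.0 arrays. All 4 groups, of 3 arrays each, carried an Afp::GFP transgene, a fluorescent reporter of alpha-fetoprotein, and were grown in N2B27 medium. The first pair of groups was unsorted, BMP4-treated cells and untreated cells. The second pair was separated by flow sorting after BMP4 into GFP positive cells and GFP negative cells. BMP4 is a signalling protein of the TGF-beta superfamily, and the study asked whether it directs XEN cells towards visceral endoderm, the absorptive outer layer of the early embryo. The labels state neither the BMP4 dose and duration nor whether replicates came from separate cultures, so p-values measure the spread between arrays, which may be technical, and 3 arrays a group limit the precision.

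In glycolysis, cytosolic enzymes split glucose into pyruvate, and lactate dehydrogenase turns pyruvate into lactate. The transcription factor HIF1 is best known for raising the genes of this pathway when oxygen is low. When oxygen is present, prolyl hydroxylases mark the HIF alpha subunits for destruction, and several of these hydroxylases are themselves HIF targets. Proliferating embryonic cells are known to use glycolysis heavily.

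The labelled cell type was checked against its markers. All 12 XEN and primitive endoderm markers listed (Gata6, Gata4 and Sox17 among them) were detected on every array. Of 5 fibroblast markers (Col1a1 and Dcn among them) none was detected on any array. Of 5 pluripotency markers Pou5f1, Nanog and Esrrb were detected on no array, Sox2 was detected on 1 BMP4 array, and Zfp42 was detected on all 12. Median scanned signal was 22.6 to 32.4 units on the 6 sorted arrays and 53.4 to 60.9 units on the 6 unsorted arrays, and 13105 to 13745 probes were detected on sorted arrays against 13872 to 14737 on unsorted ones. In bulk RNA, fewer cells of a type and less RNA per cell cannot be told apart.

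HIF binds a short core, ACGTG or GCGTG, in the promoters of many genes of this list. The 250 bases before the annotated transcription start (RefSeq, GRCm38.p6) were searched for these letters on both strands, so that CACGT and CACGC also count. A palindromic CACGTG is thereby found on both strands, and these letters are also the core of the E-box that other factors bind. A promoter sequence was found for 30 of the 33 genes, and Slc2a3, Ndrg1 and Bnip3l were not among them. At least 1 promoter held the motif in 27 of these 30 genes, which is 90%, against 41.5% of 27025 genes with a promoter sequence (47.1% of 17492 protein-coding genes). Since 9 of the 30 genes have several annotated starts, the share among the 21 with a single start is also given: 18 of them held the motif. Over single promoter windows, 35 of the 43 windows of these genes held it, against 38.6% of 32851 windows. The base composition of the windows was not matched. The list includes known HIF targets, so a high share can follow from how its genes were chosen. Some windows of the same gene overlap and hold the same match, and no share over all genes with a single start was computed. Promoters of 5 genes are shown because the comparisons turn on them: Slc2a1, the transporter gene with the largest rise, Ldha and Ldhb, an isoenzyme pair that moved in opposite directions, Pfkl, whose paralogue fell, and Egln1, an oxygen-sensing gene that fell. Capitals mark the motif, and each sequence ends at the base before the start.
Slc2a1, chr4:119108495-119108744, plus strand: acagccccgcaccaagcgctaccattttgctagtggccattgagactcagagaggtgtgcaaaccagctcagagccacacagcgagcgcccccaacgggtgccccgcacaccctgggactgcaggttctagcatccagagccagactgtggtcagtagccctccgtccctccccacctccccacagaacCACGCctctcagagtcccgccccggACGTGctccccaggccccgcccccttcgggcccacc
Ldha, first of its annotated starts, chr7:46845554-46845803, plus strand: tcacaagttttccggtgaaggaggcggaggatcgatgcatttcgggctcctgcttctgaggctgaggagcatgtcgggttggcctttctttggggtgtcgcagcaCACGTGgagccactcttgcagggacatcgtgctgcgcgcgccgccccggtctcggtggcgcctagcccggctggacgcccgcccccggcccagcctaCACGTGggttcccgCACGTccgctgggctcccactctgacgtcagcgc
Ldhb, chr6:142507958-142508207, minus strand: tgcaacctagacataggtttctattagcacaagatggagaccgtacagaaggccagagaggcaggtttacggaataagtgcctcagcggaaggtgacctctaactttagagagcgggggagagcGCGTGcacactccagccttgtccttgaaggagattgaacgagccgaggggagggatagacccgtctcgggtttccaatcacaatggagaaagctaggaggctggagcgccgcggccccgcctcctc
Pfkl, chr10:78009808-78010057, minus strand: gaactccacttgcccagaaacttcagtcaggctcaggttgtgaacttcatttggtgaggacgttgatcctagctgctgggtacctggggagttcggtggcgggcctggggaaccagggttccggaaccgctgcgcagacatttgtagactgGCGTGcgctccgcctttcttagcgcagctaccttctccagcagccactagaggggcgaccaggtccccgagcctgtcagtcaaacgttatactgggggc
Egln1, chr8:124949255-124949504, minus strand: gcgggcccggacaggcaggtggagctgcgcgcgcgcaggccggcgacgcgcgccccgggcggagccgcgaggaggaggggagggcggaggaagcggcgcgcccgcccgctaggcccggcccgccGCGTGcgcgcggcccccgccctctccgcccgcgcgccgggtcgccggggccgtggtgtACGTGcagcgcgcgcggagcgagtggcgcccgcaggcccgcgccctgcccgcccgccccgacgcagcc
The Slc2a1 promoter held 2 matches, 61 and 36 bases before the start, counted to the first base of the match. The Ldha promoter held 5 matches in 3 places, the nearest of them 34 bases before the start, and in 2 of these places the match was the palindrome. The Ldhb, Pfkl and Egln1 promoters held 1, 1 and 2 matches. The motif was thus found both in genes that rose and in genes that fell with BMP4: it was in 13 of the 15 genes with a promoter sequence that rose, and in all 5 that fell. A match describes these letters and is not evidence of binding.

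BMP4-treated cells had more RNA of nearly the whole route from glucose uptake to lactate than untreated cells. They had less RNA of 4 of the 6 measured hypoxia response and HIF genes. Of the 26 measured genes, 16 rose (61.5%, where 30.2% of all genes tested rose) and 7 fell (26.9%, where 28.7% of all genes fell), with adjusted p (Benjamini-Hochberg, limma) under 0.05. Called either way were 88.5% of the measured genes and 58.9% of all genes. The median log2 difference was 0.47 over the 26 genes and 0.03 over all genes tested. Changes of at least 1 on the log2 scale were seen in 7 of the 26 genes, against 9.98% of all genes. The 3 BMP4 arrays lay wholly above the 3 untreated arrays for 17 of the genes (31.7% of all genes) and wholly below them for 8 (29.6% of all genes).

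Among the 18 measured genes from glucose uptake to lactate, 14 rose, 3 fell (Hk1, Pfkm and Ldhb) and Eno2 was not called, with a median log2 difference of 0.81. Each of the 10 reactions of glycolysis had at least 1 gene that rose, and 2 reactions, hexokinase and phosphofructokinase, also had a gene that fell. Of the 11 listed hypoxia response and HIF genes only 6 were measured. Of these 6 none rose (30.2% of all genes tested did) and 4 fell (28.7% of all genes tested did): Ndrg1, Egln1, Egln3 and Bnip3l. These counts depend on the grouping. The glycolytic genes, which HIF1 is also known to raise, and Pdk1 and Pdk3 were counted outside this group. The calls of Egln3 and Bnip3l were lost under 6 and 7 of the alternative settings. The median log2 difference of the 6 genes was -0.25. At an unadjusted p under 0.05 in limma the counts for these 6 genes were 0 higher and 5 lower, where 62.9% of all genes passed that threshold in one direction or the other.

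**Figure D1:**
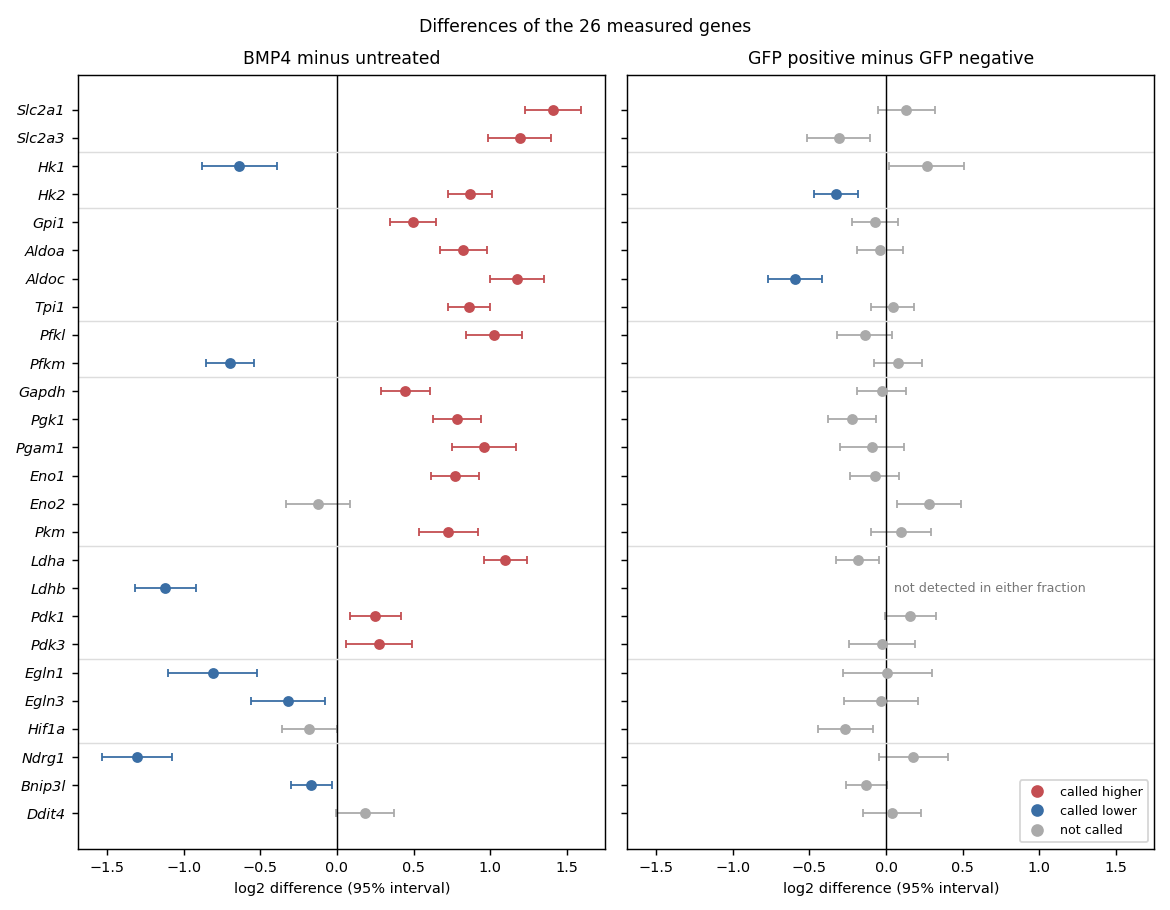
Log2 differences of the 26 measured genes, BMP4 minus untreated on the left and GFP positive minus GFP negative on the right, with 95% intervals from limma (n = 3 arrays a group), grouped by role from uptake to the hypoxia response. On the left 16 genes are called higher and 7 lower. On the right 2 are called lower and none higher, and Ldhb has no point because neither fraction detected it.

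The glucose transporters rose most. Slc2a1 (GLUT1), the widespread facilitative glucose transporter, had log2 signals of 12.58, 12.39 and 12.38 on BMP4 arrays, against 11.07, 10.95 and 11.11 on untreated arrays. The groups did not overlap, and the difference was 1.41 ± 0.09 on the log2 scale (SE, n = 3 arrays a group), or 2.65-fold (adjusted p = 1.19e-08). Slc2a3 (GLUT3), a transporter with high affinity for glucose, had 13.11, 13.05 and 12.84 on BMP4 arrays, against 11.79, 11.76 and 11.87 on untreated arrays. All BMP4 arrays were higher, by 1.19 ± 0.10 (2.28-fold, adjusted p = 1.84e-07).

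The hexokinases, which trap glucose in the cell as glucose 6-phosphate, moved in opposite directions. Hk2, the inducible form, had 10.68, 10.62 and 10.60 on BMP4 arrays, against 9.77, 9.79 and 9.76 on untreated arrays, a rise of 0.86 ± 0.07 (1.82-fold, adjusted p = 1.22e-07). Hk1, the form found in most tissues, had 6.98, 6.65 and 6.85 on BMP4 arrays, against 7.41, 7.55 and 7.43 on untreated arrays. Hk1 fell by 0.64 on the log2 scale (SE 0.11, adjusted p = 0.000292), and for neither gene did the groups overlap.

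The subunits of phosphofructokinase, which commits sugar to glycolysis, split in the same way. Pfkl, the liver-type subunit, had 11.71, 11.71 and 11.63 on BMP4 arrays, against 10.51, 10.70 and 10.77 on untreated arrays. It rose by 1.02 ± 0.08 (2.03-fold, adjusted p = 2.28e-07), although a second, dimmer Pfkl probe gave a log2 difference of 0.08. Pfkm, the muscle-type subunit, had 9.90, 9.91 and 9.91 on BMP4 arrays, against 10.50, 10.67 and 10.64 on untreated arrays, with no overlap. Pfkm fell by 0.70 on the log2 scale (SE 0.07, adjusted p = 2.13e-06), and its other detected probes gave -0.67 and -0.51. The platelet-type subunit Pfkp and Pfkfb3, which makes an activator of phosphofructokinase, were detected on no array.

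Between these steps and pyruvate, genes of all the remaining reactions rose. Aldoc, an aldolase best known from brain, had 9.51, 9.63 and 9.48 on BMP4 arrays, against 8.41, 8.41 and 8.29 on untreated arrays. It rose by 1.17 ± 0.08 (2.25-fold, adjusted p = 4.48e-08), more than the widespread aldolase Aldoa, which rose by 0.82 ± 0.07 (adjusted p = 3.26e-07); the difference between these 2 rises was not tested. The isomerases Gpi1 and Tpi1 rose by 0.49 ± 0.07 and 0.86 ± 0.06 (adjusted p = 3.78e-05 and 9.41e-08). Among the enzymes after the sugar is split, Pgam1 (phosphoglycerate mutase) rose by 0.96 ± 0.10, Pgk1 (phosphoglycerate kinase) by 0.79 ± 0.07, Eno1 (enolase) by 0.77 ± 0.07 and Pkm (pyruvate kinase) by 0.73 ± 0.09, with adjusted p of 1.19e-05 or below. A second, dimmer Pgk1 probe gave a log2 difference of only 0.28. Gapdh, often used as a reference gene, rose by 0.45 ± 0.07 on its brightest probe (adjusted p = 0.000158), and its other detected probes gave 0.92 and 0.84. Eno2, the neuronal enolase, had 8.12, 8.35 and 8.29 on BMP4 arrays, against 8.21, 8.34 and 8.58 on untreated arrays. These values overlapped, and the Eno2 difference of -0.12 ± 0.10 was not called (adjusted p = 0.288, 95% interval -0.33 to 0.08). No gene of the list had detected probes that differed in sign in this comparison, among the 11 genes with several of them.

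**Figure D2:**
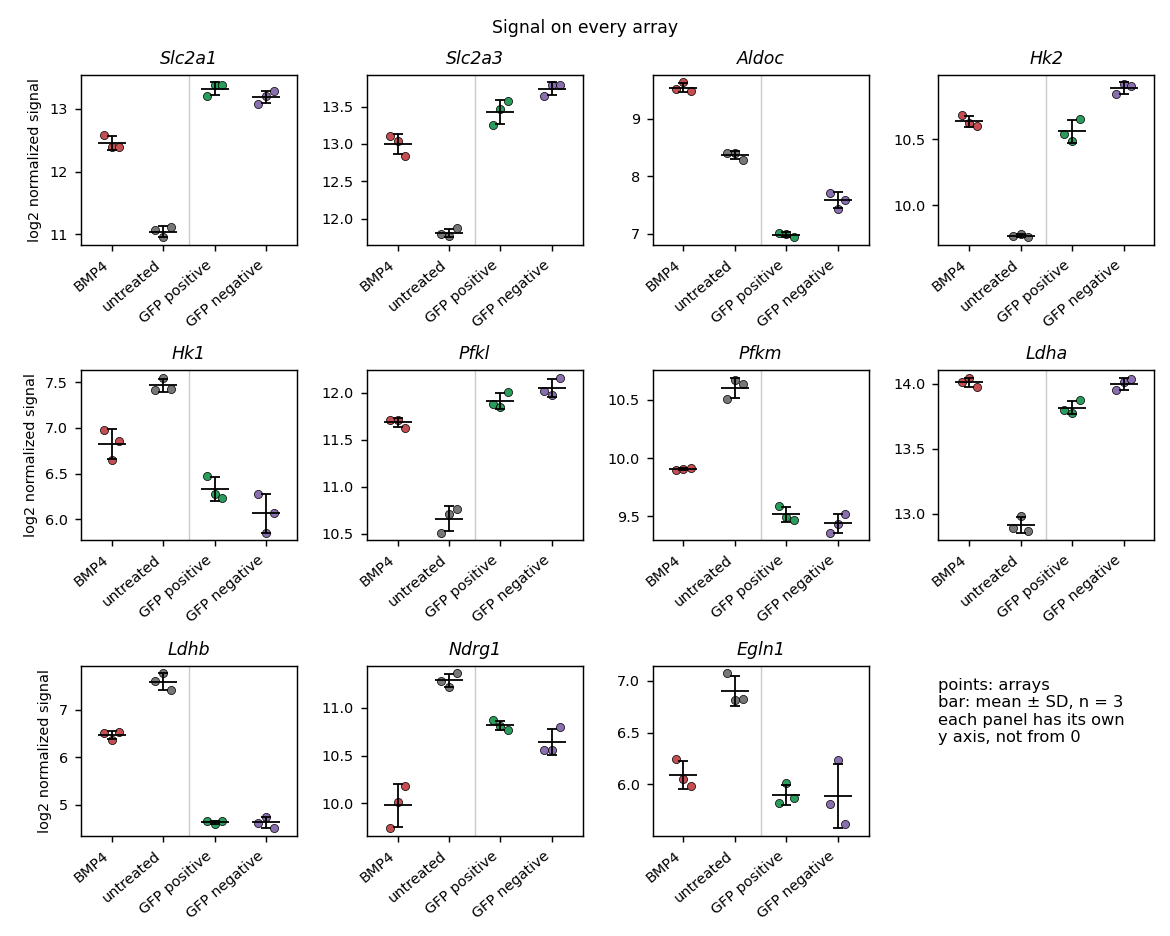
Log2 normalized signal of 11 genes on each of the 12 arrays, with the mean and SD of each group (n = 3) and a separate scale for each gene. In the unsorted cells, left of the line in each panel, Slc2a1, Slc2a3, Aldoc, Hk2, Pfkl and Ldha are higher on all BMP4 arrays, and Hk1, Pfkm, Ldhb, Ndrg1 and Egln1 are lower on all of them. Ldhb was detected on none of the sorted arrays, so its points there are background.

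Lactate dehydrogenase was the third enzyme whose isoenzymes moved in opposite directions. Ldha, the subunit known for favouring the making of lactate, had 14.01, 14.04 and 13.97 on BMP4 arrays, against 12.89, 12.98 and 12.87 on untreated arrays. Ldha rose by 1.10 ± 0.07 (2.14-fold, adjusted p = 9.38e-09). Ldhb, the heart-type subunit, had 6.50, 6.37 and 6.54 on BMP4 arrays, against 7.59, 7.76 and 7.41 on untreated arrays. Ldhb fell by 1.12 on the log2 scale (SE 0.09, 2.17-fold lower, adjusted p = 2.71e-07). Both genes were detected on all arrays of these groups, which did not overlap for either gene. The pyruvate dehydrogenase kinases, which hold pyruvate back from the mitochondrial citric acid cycle, rose less: Pdk1 by 0.25 ± 0.08 (adjusted p = 0.0136) and Pdk3 by 0.27 ± 0.10 (adjusted p = 0.0294). The Pdk1 call was lost with scale normalization (adjusted p = 0.0948) and without BMP4 replicate 1 (0.0573) or untreated replicate 1 (0.0521). Pdk3 lost its call with scale normalization (0.116), without the detection filter (0.0665), with only these groups in the fit (0.0726), and without BMP4 replicate 2 (0.104) or untreated replicate 3 (0.146).

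Of the measured hypoxia response genes, Ndrg1 and Egln1 differed most. Ndrg1, a widely used hypoxia marker, had 9.74, 10.02 and 10.18 on BMP4 arrays, against 11.28, 11.22 and 11.36 on untreated arrays. It fell by 1.30 on the log2 scale (SE 0.11, 2.47-fold lower, adjusted p = 2.01e-07), and its second detected probe gave -1.28. Egln1 (PHD2), the main oxygen-sensing HIF prolyl hydroxylase, had 6.24, 6.05 and 5.99 on BMP4 arrays, against 7.07, 6.82 and 6.82 on untreated arrays. Egln1 fell by 0.81 on the log2 scale (SE 0.14, adjusted p = 0.000174). Its 2 other probes that passed the detection filter gave -0.64 and -0.78. They were dimmer and were detected on only 7 and 3 arrays of the whole set, with mean log2 signals of 5.97 and 5.38. The value of -0.78 therefore includes arrays that did not detect its probe, and its size cannot be read as a measured fall. Every BMP4 array was below every untreated array for both genes.

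Smaller differences were seen in the rest. Egln3 (PHD3), a prolyl hydroxylase that hypoxia induces in many cells, fell by 0.32 on the log2 scale (SE 0.11, adjusted p = 0.0239). Bnip3l, which directs mitochondria to autophagy, fell by 0.17 (SE 0.06, adjusted p = 0.0306). The Egln3 call was lost with scale normalization (0.0853), no detection filter (0.0604), array weights (0.0601), and without BMP4 replicate 1 (0.108), BMP4 replicate 2 (0.0524) or untreated replicate 1 (0.0908). Bnip3l lost its call with scale normalization (0.189), with only these groups in the fit (0.0923), and without BMP4 replicate 2 (0.0697) or 3 (0.0606) or untreated replicate 1 (0.0745), 2 (0.0643) or 3 (0.0545). Hif1a, the oxygen-regulated HIF subunit, differed by -0.18 ± 0.08 (adjusted p = 0.0758) and Ddit4, an inhibitor of mTORC1 induced by stress and hypoxia, by 0.18 ± 0.09 (adjusted p = 0.0921), and neither was called. The Hif1a probe measures RNA, and HIF1 alpha is controlled largely through the stability of its protein, which was not measured. Bnip3, Ero1a, Car9 and Adm, all known HIF targets, were detected on no array. Car9 in particular is among the genes that hypoxia is best known to induce. These 4 genes had 1, 2, 3 and 1 probes, and a probe that does not work cannot be told from absent RNA here.

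Visceral endoderm markers moved with the same treatment. The summed signal of 9 of them was 10883 to 11925 units on BMP4 arrays and 6594 to 6859 units on untreated arrays, and 8 of the 9 rose while Ttr fell. The summed signal of the 12 XEN and primitive endoderm markers was 92122 to 95011 units on BMP4 arrays and 108709 to 120908 units on untreated arrays. Cdx2, a trophoblast marker, was detected on the 3 BMP4 arrays and on none of the others, while the other 4 trophoblast markers were detected on no array. Among mesoderm, blood and endothelial markers only Cdh5 was detected, and that list's summed signal was 117 to 131 units on BMP4 arrays and 336 to 356 units on untreated arrays. The part of these changes in the glycolytic difference was not tested.

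Other genes of the same and neighbouring pathways, chosen for their function, were followed as well. Of 79 such genes 49 were measured, and with BMP4 15 rose, 18 fell and 16 were not called, with a median log2 difference of -0.11. Over all genes tested 30.2% rose and 28.7% fell, and the counts of the single lists are to be read against these shares. Pfkfb4 stands on 2 of these lists and is counted in both. The pentose phosphate branch, which draws glucose 6-phosphate off to make NADPH and ribose, was nearest to the glycolytic genes, with 4 of 6 measured genes higher and Rpia lower. G6pdx, its first enzyme, rose by 1.49 ± 0.09 (adjusted p = 1.53e-08), Pgd, the next NADPH-making enzyme, by 1.17 ± 0.06 (2.71e-09), and Taldo1, transaldolase, by 0.67 ± 0.08 (6.23e-06). Among 8 other glycolysis and sugar enzymes 2 rose and 3 fell: Eno3, the muscle enolase, fell by 1.04 (SE 0.10, adjusted p = 1.62e-06), Pfkfb2 by 0.62 (SE 0.10, 8.82e-05) and Adpgk by 0.38 (SE 0.13, 0.0229). The measured enolases therefore comprised Eno1, which rose, Eno2, which was not called, and Eno3, which fell.

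Among 9 genes of pyruvate and lactate handling 2 rose and 4 fell. Gpd2, the mitochondrial enzyme of the glycerol phosphate shuttle, rose by 1.01 ± 0.11 (adjusted p = 3.09e-06). Pcx, pyruvate carboxylase, which was detected on 1 of 3 BMP4 arrays, fell by 0.57 (SE 0.17, adjusted p = 0.00944), and Mpc2, a subunit of the mitochondrial pyruvate carrier, fell by 0.45 (SE 0.12, 0.00414). Among 10 HIF subunits and regulators 1 rose and 3 fell: Epas1 (HIF2 alpha) fell by 0.62 (SE 0.09, adjusted p = 3.84e-05), Elob, a subunit of the VHL ubiquitin ligase, by 0.48 (SE 0.07, 7.51e-05), and the chaperone Hsp90aa1 rose by 0.46 ± 0.14 (0.0124). The 16 other measured HIF targets divided evenly, with 7 higher and 7 lower. Car12, a membrane carbonic anhydrase, rose by 1.28 ± 0.09 (adjusted p = 5.97e-08) and Vegfa, the angiogenic growth factor, by 1.20 ± 0.11 (9.74e-07), while Plod1, a collagen lysyl hydroxylase, fell by 1.16 (SE 0.15, 1.79e-05). Of 5 gluconeogenesis genes only Fbp2 was measured, with a difference of -0.21 ± 0.12 that was not called.

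**Figure D3:**
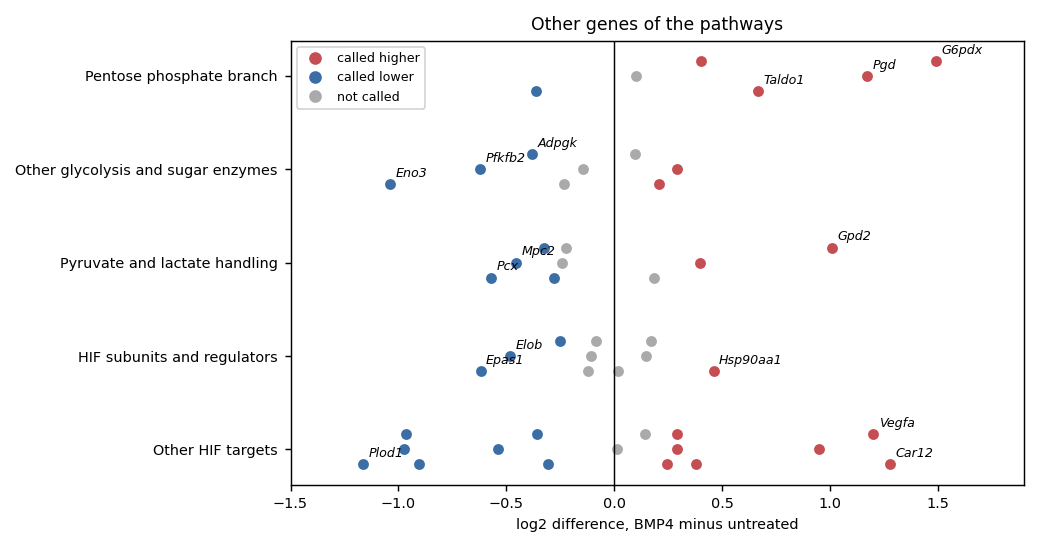
Log2 difference, BMP4 minus untreated, of the measured genes of neighbouring pathways that are not on the main list, 1 point a gene (n = 3 arrays a group; the single measured gluconeogenesis gene is left out). Points lie on both sides of 0 in every group, and the points farthest to the right are G6pdx, Car12, Vegfa and Pgd.

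The second comparison asked whether the cells that switched on the Afp reporter after BMP4 differed from those that did not. Afp itself was 2.23 ± 0.17 higher on the log2 scale in GFP positive cells (adjusted p = 6.3e-06 in limma), as the sort selects. The visceral endoderm markers as a list did not follow Afp. Of the 9, Afp included, 2 were called higher and 4 lower in GFP positive cells, with a median log2 difference of -0.27. Their summed signal was 17919 to 18917 units on GFP positive arrays and 18513 to 20501 units on GFP negative arrays. Of the 26 genes none was called higher in limma (3.07% of all genes tested) and 2 were called lower (2.32% of all genes). Called either way were thus 7.69% of the 26 genes and 5.39% of all genes. At an unadjusted p under 0.05, 2 were higher and 6 lower, where 18.6% of all genes passed in one direction or the other. The median log2 difference was -0.03 over the 26 genes and -0.01 over all genes. Without regard to sign, the median difference was 0.11 over the 26 genes and 0.10 over all genes. The 3 GFP positive arrays lay wholly above the 3 GFP negative arrays for 2 of the genes (7.69%, against 13.1% of all genes). They lay wholly below for 7 (26.9%, against 14.3% of all genes).

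The genes that fell in GFP positive cells were Aldoc and Hk2. Aldoc had 7.02, 7.00 and 6.94 on GFP positive arrays, against 7.71, 7.44 and 7.59 on GFP negative arrays. It fell by 0.60 on the log2 scale (SE 0.08, 1.51-fold lower, adjusted p = 0.000777), with no overlap. Hk2 had 10.54, 10.49 and 10.66 on GFP positive arrays, against 10.84, 10.92 and 10.91 on GFP negative arrays. Hk2 fell by 0.33 (SE 0.07, 1.26-fold lower, adjusted p = 0.011), but the call was lost without GFP positive replicate 1 (0.0536), GFP positive replicate 2 (0.0543) or GFP negative replicate 2 (0.0569). Both genes had risen with BMP4 in the unsorted cells, a combination of calls that 0.868% of all genes tested showed.

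Other genes were not called. Slc2a3 had 13.25, 13.47 and 13.57 on GFP positive arrays, against 13.64, 13.79 and 13.79 on GFP negative arrays. The arrays did not overlap, and the difference of -0.31 ± 0.10 had an adjusted p of 0.0862, which came to 0.04 with no background correction, 0.0372 with an offset of 50 and 0.033 with array weights. Pgk1 differed by -0.22 ± 0.07 (adjusted p = 0.103), Hif1a by -0.26 ± 0.08 (0.0942) and Ldha by -0.18 ± 0.07 (0.133). Eno2 differed by 0.28 ± 0.10 (0.122) and Hk1 by 0.26 ± 0.11 (0.229). With array weights Pgk1 and Hif1a were called lower and Eno2 was called higher. For Slc2a1 the values were 13.20, 13.37 and 13.38 on GFP positive arrays and 13.08, 13.20 and 13.28 on GFP negative arrays, which overlapped (0.13 ± 0.09, 95% interval -0.05 to 0.32). Ldhb was detected in neither fraction, so no fold is given. Brightest and dimmer probes of Gapdh, Pfkl, Pgk1, Pkm and Tpi1 differed in sign in this comparison. Among the 49 genes of neighbouring pathways, Eno3 was called higher in GFP positive cells (0.48 ± 0.10, adjusted p = 0.0157) and P4ha1, a collagen prolyl hydroxylase, was called lower (-0.36 ± 0.09, 0.036).

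The BMP4 difference and the fraction difference were set against each other in the same model, using separate arrays for each. The BMP4 difference was the greater for 14 of the 26 genes (24.5% of all genes tested) and the smaller, in the signed sense, for 6 (23.4% of all genes), 76.9% in all against 47.9% of all genes. All 14 belonged to the route from uptake to lactate, and all had been called higher with BMP4. The median fraction difference of the 26 genes, without regard to sign, was 0.11, so the gaps largely restate the BMP4 differences. The widest gaps were in Aldoc, at 1.77 ± 0.12 (adjusted p = 4.91e-08), Slc2a3, at 1.50 ± 0.13 (1.11e-06), and Ndrg1, at -1.48 ± 0.15 (3.12e-06). For Pdk1, Pdk3 and the hypoxia response and HIF genes other than Ndrg1 and Egln1, the BMP4 and fraction differences were not shown to differ.

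Sorted cells, both fractions averaged, were also compared with the unsorted BMP4 cells. Both were given BMP4, but whether their RNA was handled and hybridized together is not given in the sources used here, so sorting and handling cannot be told apart. Of the 26 genes 9 were higher in sorted cells (34.8% of all genes) and 7 were lower (35.4%), so the called share of 61.5% was below the 70.1% of all genes. Sorted arrays lay wholly above the unsorted BMP4 arrays for 9 genes (30.1% of all genes) and wholly below for 4 (29.5%). With scale normalization, under which the median difference of all genes was -0.14 (-0.02 with quantile normalization), the split was 5 higher and 9 lower. Immediate early and stress genes differed too, in both directions: of the 8 measured among 10 listed, 5 were called higher in sorted cells and 3 lower. Their summed signal was 1844 to 2129 units on sorted arrays and 1449 to 1576 units on unsorted BMP4 arrays. Ier2 and Hspa1b were detected on no array. The summed signal of the visceral endoderm markers was 17919 to 20501 units on sorted arrays and 10883 to 11925 units on unsorted BMP4 arrays, with 6 of 9 called higher. That of the XEN and primitive endoderm markers was 75813 to 84347 units on sorted arrays and 92122 to 95011 units on unsorted BMP4 arrays, with 9 of 12 called lower. The part of these differences in the glycolytic ones was not tested.

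Aldoc showed the largest difference between sorted and unsorted cells. The sorted arrays, at 6.94 to 7.71, lay below the unsorted BMP4 arrays, at 9.48 to 9.63, and also below the untreated arrays. The log2 difference was -2.26 ± 0.07, or 4.78-fold lower in sorted cells (adjusted p = 2.87e-11). Ldhb was detected on none of the 6 sorted arrays and on all 3 unsorted BMP4 arrays. With sorted values raised to the lowest normalized signal of any detected probe, Ldhb was at least 1.68-fold lower in sorted cells (means 5.72 at that bound, 4.64 as measured, and 6.47 in unsorted BMP4 cells). The adjusted p of 5.86e-10 belongs to the signals as measured and is no test of that bound. Hk1 and Pfkm were also lower in sorted cells, with log2 differences of -0.63 ± 0.10 (adjusted p = 6.61e-05) and -0.43 ± 0.06 (3.48e-05).

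Other genes were higher in the sorted cells. Slc2a1 was 0.80 ± 0.07 higher than in unsorted BMP4 cells (adjusted p = 5.17e-07) and Slc2a3 was 0.59 ± 0.08 higher (2.57e-05). Ndrg1 had 10.87, 10.81 and 10.77 on GFP positive arrays and 10.56, 10.56 and 10.80 on GFP negative arrays, all above the unsorted BMP4 arrays and below the untreated ones. Its difference was 0.75 ± 0.09 (adjusted p = 6.95e-06), and Eno2 differed by 0.49 ± 0.08 (0.000157). These 4 genes and Aldoc, Ldhb, Hk1 and Pfkm kept an adjusted p under 0.05 under every other normalization, filter, probe choice, fit and left-out array that was run. Gpi1 was called higher (0.16 ± 0.06, adjusted p = 0.0291), and the mean of its detected probes was called lower (-0.34, adjusted p = 9.68e-05). The Gpi1 call was also lost with scale normalization (0.612) and without BMP4 replicate 3 (0.144), GFP positive replicate 1 (0.0557) or GFP negative replicate 1 (0.0624).

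Across the 4 groups, untreated cells had the lowest mean of 16 of the 26 genes and the highest mean of 8. The mean of unsorted BMP4 cells lay between the means of both sorted fractions for 3 genes, above both for 11 and below both for 12. Untreated cells were lowest for 13 of the 18 genes from uptake to lactate, the others being Hk1, Pfkm and Ldhb, where they were highest, and Aldoc and Eno2.

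**Figure D4:**
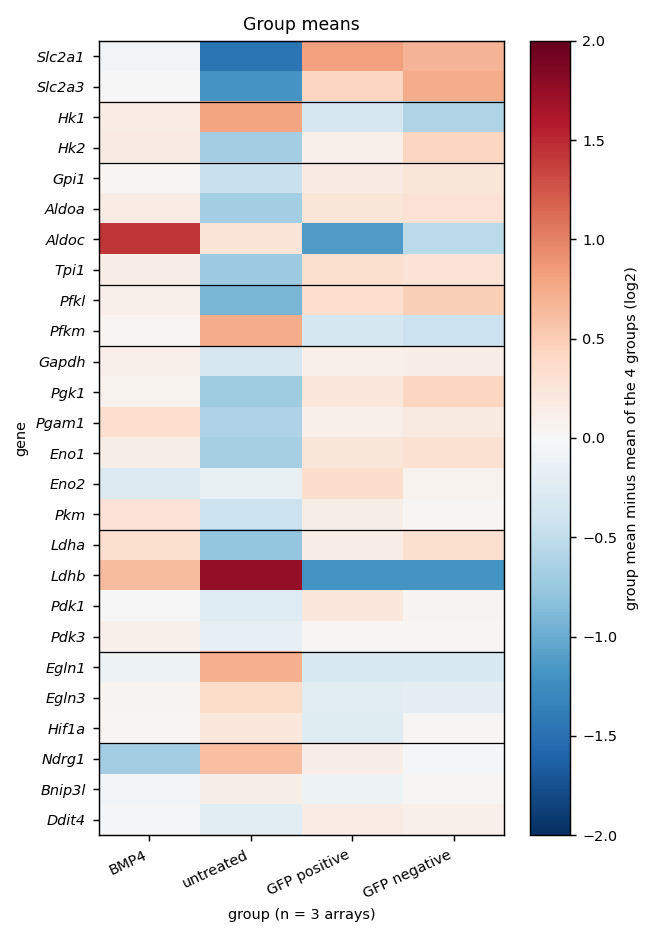
Mean log2 signal of each gene in the 4 groups, less the mean of the 4 groups for that gene (n = 3 arrays a group). Ldhb was detected on no sorted array. The untreated column is low for most genes from uptake to lactate and high for Hk1, Pfkm, Ldhb, Egln1 and Ndrg1, and Aldoc is low in both fractions.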

How the data were processed

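Total RNA of 12 samples in 4 groups of 3 was hybridized to Illumina arrays. Per the file headers, BeadStudio 3.4.0 wrote the scanner table with no normalization. It gives, for each of 45281 probes and each array, a mean bead intensity as deposited. Beside it stands a deposited detection value, a fraction equal to 1 minus the detection p. A second table from the authors, with log2 values for 20178 probes, was only counted, because its identifiers could not be tied to genes here. The submitters' processing notes name lumi, and how that table was transformed and normalized was not given in the sources used here.

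With limma 3.58.1 (R 4.3.3) the intensities were corrected for background using the detection p, and an offset of 16 was added. Then log2 was taken, and arrays were quantile normalized. A probe entered if its detection p was below 0.01 on 3 or more arrays, which kept 15448 and dropped 29833. Of the file's symbols 13430 equalled a current name, 8112 were updated through a synonym and 9948 stayed unchanged. Taking the brightest such probe left 10597 genes. Means of the 4 groups were estimated from all 12 arrays in limma (8 residual and 5.08 prior degrees of freedom, median residual SD 0.116). Calls needed an adjusted p (Benjamini-Hochberg, across all genes tested) below 0.05. No pair of arrays was identical, and within a group arrays correlated at 0.994 to 0.997. The fit was tested on simulated data with planted changes. A group in which no array detected a gene was raised, on each array, to the lowest normalized signal of any detected probe before the fold was computed. Several glycolytic genes have near-identical pseudogenes, and whether probes also bind their transcripts was not tested.

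The genes of the list, the other pathway and marker lists and the tests were chosen with earlier results of these data known. Values on every array are given for the 5 called genes with the largest rise and the 5 with the largest fall in each of the first 2 comparisons, and for isoenzyme pairs called in opposite directions, and a few further genes were added after their values were seen. From the other lists up to 3 called genes a group are named. The settings varied were background correction (none), the offset (50), scale normalization, no detection filter or detection on 6 arrays, the mean of kept probes, only the groups compared, array weights, the replicate number as a block, stricter calls, and leaving out each array.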

Additional observations from a re-analysis of the deposited data

Results flagged for a closer look

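For 20 of the 26 measured genes the BMP4 difference (BMP4 minus untreated) and the fraction difference (GFP positive minus GFP negative) were themselves different at an adjusted p under 0.05 in limma, where 47.9% of all genes tested were. The values below are the first difference less the second, on the log2 scale. Positive gaps in glucose uptake and the early steps were 1.28 for Slc2a1, 1.50 for Slc2a3, 1.19 for Hk2, 0.57 for Gpi1, 1.16 for Pfkl, 0.86 for Aldoa, 1.77 for Aldoc and 0.82 for Tpi1. In the later steps they were 0.47 for Gapdh, 1.01 for Pgk1, 1.05 for Pgam1, 0.84 for Eno1, 0.63 for Pkm and 1.28 for Ldha. Negative gaps were -0.90 for Hk1, -0.78 for Pfkm, -0.41 for Eno2, -1.12 for Ldhb, -1.48 for Ndrg1 and -0.82 for Egln1. The Eno2 gap (adjusted p = 0.0255) was the only one in which neither difference alone was called, and it lost its call under 7 alternatives. The Gapdh gap lost its call with scale normalization (adjusted p = 0.118). For Ldhb the fraction difference is between signals not detected in either fraction, so its gap rests on the BMP4 difference. The unsorted and the sorted arrays are separate sets that differ in median signal, and the part of this in the gaps was not tested.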

How the results depend on the processing

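Under alternatives with another normalization, filter, probe choice, fit or weights, the BMP4 against untreated counts stayed within 1.5 times 16 higher and 7 lower, and none of the 546 single-gene values run changed sign. Requiring a log2 difference of at least 1 left 5 higher and 2 lower there, 0 lower in the fraction comparison, 8 higher and 2 lower for the gap between the BMP4 and fraction differences, and 0 higher and 2 lower in sorted against unsorted BMP4 cells; fewer genes pass by construction. In the fraction comparison, array weights gave 1 higher and 5 lower, and an adjusted p under 0.01 left 1 lower. In sorted against unsorted BMP4 cells, scale normalization gave 5 higher and an adjusted p under 0.01 left 4 lower. Where no construction shows it, the cause was not tested.

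Leaving out each array in turn gave 15 to 16 higher and 5 to 7 lower with BMP4, 0 to 0 higher and 1 to 2 lower in GFP positive cells, 14 to 15 higher and 5 to 7 lower for the gap, and 7 to 10 higher and 5 to 7 lower in sorted cells. The GFP positive count of 1 came without GFP positive replicate 1, GFP positive replicate 2 or GFP negative replicate 2.

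Deviations of same-numbered arrays from their group means correlated at -0.05 to -0.01 between BMP4 and untreated. These values give no sign of pairing by number there, though 3 pairs cannot exclude it. Between GFP positive and GFP negative they correlated at 0.15, 0.13 and -0.01 for replicates 1, 2 and 3. Differently numbered arrays of the 2 fractions correlated at -0.20 to 0.08. A weak pairing of the fractions by number is therefore possible, and the main fit does not use it. With the replicate block the counts were 16 higher and 7 lower with BMP4 and 0 and 2 in GFP positive cells. They were 14 and 6 for the gap and 9 and 6 in sorted cells, where Pgam1 lost its call. Pgam1 lost that call under 15 alternatives in all, and its dimmer probe gave 0.08. In the same comparison the calls of Eno1, Egln3 and Tpi1 were lost under 7, 5 and 3 alternatives, and those of Pfkl, Pgk1 and Pkm under 1 each.

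Of the values that changed sign under an alternative, only that of Gpi1 was called as reported. Pgk1 in GFP positive against GFP negative cells was -0.22 as reported and was called lower with array weights. Ldhb values between the fractions are differences of background signal, detected in neither, and their sign carries no direction. In GFP positive against GFP negative cells, scale normalization gave -0.0196 for Tpi1, -0.0087 for Pkm and -0.0049 for Ldhb, and the mean of kept probes gave -0.0132 for Tpi1, 0.0406 for Pgk1 and -0.0449 for Pkm. Array weights gave -0.0054 for Ldhb and -0.0128 for Egln1. Leaving out each array in turn, the fraction difference ran from -0.0536 to 0.0088 for Gapdh, from -0.0545 to 0.0669 for Ldhb, from -0.062 to 0.0142 for Pdk3, from -0.126 to 0.181 for Egln1, from -0.0975 to 0.0489 for Egln3 and from -0.0567 to 0.124 for Ddit4. In sorted against unsorted BMP4 cells, scale normalization gave -0.0199 for Hk2, -0.0187 for Aldoa, -0.0389 for Pdk1, -0.0894 for Bnip3l and -0.0365 for Ddit4, and it gave 0.0784 for the Bnip3l gap. Gapdh there ran from -0.0053 to 0.0343 as each array was left out. Gpi1 was called lower at -0.34 with the mean of kept probes, since its dimmer probe gave -0.83.

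Signal over background limits the sorted arrays most, where Ldhb was not detected and Egln1 was detected on 2 of 3 GFP negative arrays. Few probes stand for each gene, so levels of different genes are not compared.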
